A study of Mus musculus with 50 samples.

Results

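The 9 genes described here encode the proteins that assemble and equip the muscle side of the neuromuscular junction: the nerve-derived ligand agrin (Agrn), its receptor pair Lrp4 and MuSK (Musk), the MuSK adaptor Dok7 (Dok7), the receptor scaffold rapsyn (Rapsn), acetylcholinesterase (Ache) and its collagen tail (Colq), and the ETS transcription factors Etv4 and Etv5. They were chosen by symbol and were 9 of the 23880 genes in the deposited table. Each of the 9 symbols matched 1 gene, and all 9 were among the 12586 genes with enough reads to test. The study followed the natural course of muscle ageing and asked which transcripts change as mouse muscle loses mass and force, and whether mice of one age come to differ more from each other. Polyadenylated RNA of the gastrocnemius, a fast-twitch calf muscle, was sequenced from 50 wild-type male C57BL/6JRj mice, in groups of 8 mice (at 8, 18, 22 and 24 months of age) or of 9 mice (at 26 and 28 months).

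All mice were untreated, singly caged and fed the purified AIN93M diet, and each library came from 1 animal. The diet history differed with age. Mice of 8 and 18 months received it for at least 2 months before dissection, whereas mice of 22 months and older received it from 18 to 19 months onward. Diet history and age therefore cannot be told apart between the younger and the older ages. The comparison of 28 with 22 months lies within one regime, with the same age at its start. The mice of 28 months had been on the diet for longer, so time on the diet and age cannot be told apart there either. Mice with overt illness or tumours were not part of the study, so the oldest groups are mice that stayed free of both. The libraries held whole muscle, in which synaptic nuclei are a small minority, so fewer cells or nuclei of a type and less RNA in each of them cannot be told apart.

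At the neuromuscular junction the motor nerve terminal releases agrin into the synaptic cleft, where it binds Lrp4 on the muscle fibre and thereby activates the receptor tyrosine kinase MuSK. Active MuSK recruits Dok7, which dimerizes and sustains the kinase, and the signal leads rapsyn to cluster acetylcholine receptors under the nerve terminal. Acetylcholinesterase, anchored in the synaptic basal lamina by the collagen ColQ, ends each signal by hydrolysing acetylcholine, and Etv4 and Etv5 belong to the ETS family that drives synapse-specific transcription downstream of neuregulin and agrin. Loss of innervation is known to raise Musk and several, but not all, of the receptor subunit genes along the whole fibre, outside the synapse.

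Libraries held between 13607229 and 21267375 counted reads, and no 2 mice of one age were alike within sampling noise. The skeletal muscle identity of the tissue was clear, since the 7 fibre markers, which include skeletal actin and muscle creatine kinase, summed to between 104000 and 157000 TPM units (transcript counts divided by length and scaled to a fixed total) over the mice of 8 and 28 months. Levels below are given as CPM, the read counts scaled to a fixed library size, which serve to compare one gene between mice, and as TPM, which account for transcript length and serve to compare genes. Read depth was ample for 8 of the members, which had between 55 and 4053 reads in each mouse, and thin for Etv4, which had 12 to 48.

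**Figure D1:**
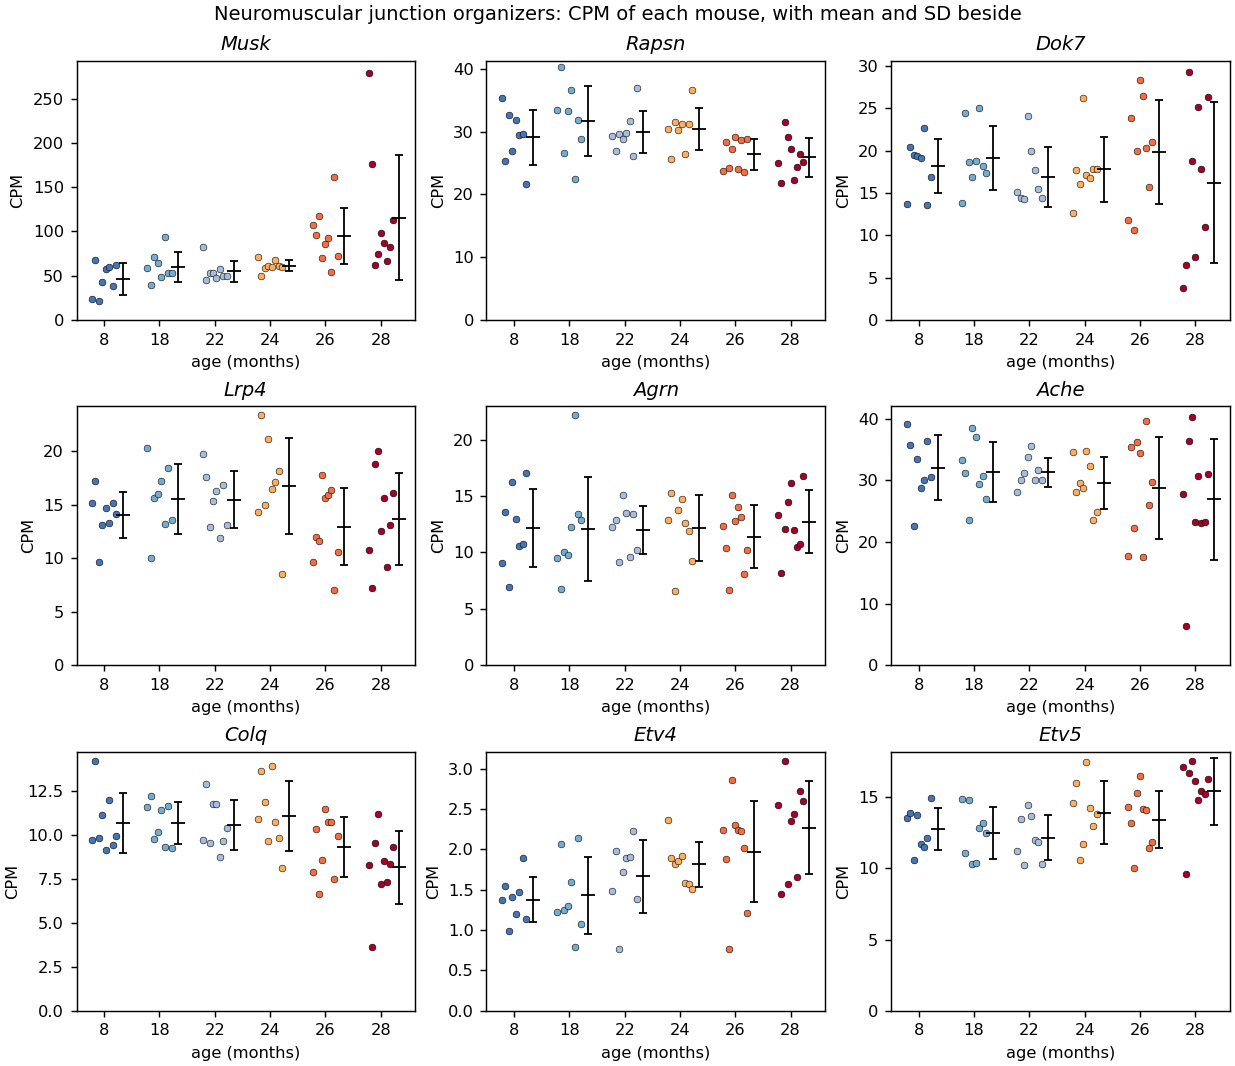
Level of each of the 9 genes in CPM (vertical axes, linear, starting at 0) against age in months, with 1 point per mouse and the mean and SD of each age beside the points. Musk and Etv4 rose toward 28 months, Colq was lower at 28 months, and Dok7 spread from 3.79 to 29.3 CPM among the 9 mice of 28 months.

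Each older age was compared with 8 months in 1 edgeR quasi-likelihood fit over all mice, with a gene counted as changed at a false discovery rate (FDR) below 0.01 over all genes tested. At 18, 22 and 24 months none of the 9 members passed, by edgeR or by DESeq2, and none had an unadjusted p under 0.05. The share of all genes that passed at these ages was 0.0715%, 0.0397% and 0.612%. At 26 months 1 member passed, Musk, against 18.4% of all genes. At 28 months 3 of the 9 members passed, with Musk and Etv4 higher and Colq lower, against 39.6% of all genes (21% higher and 18.7% lower), so the share of members called was not above that of genes in general. The median change of the members was -0.04 on the log2 scale, beside 0.01 over all genes tested.

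The other comparisons reuse the same mice and are given as values of their own. Between 28 and 18 months 3 members passed, with Musk and Etv4 higher and Rapsn lower, where 35.6% of all genes passed. Within the common diet regime, between 28 and 22 months, 2 members passed, Musk and Etv5, both higher, where 27.7% of all genes passed. Between 28 and 24 months Musk alone passed, where 10.9% of all genes passed. None of the 9 passed in edgeR between 26 and 18 months or between 26 and 22 months, where 10.1% and 2.65% of all genes passed and where 3 members and 1 member had an unadjusted p under 0.05. When all 6 ages were tested together for any difference, Musk was the only member called by edgeR (FDR = 1.41e-05), where 35.4% of genes were called, while Etv4 (FDR = 0.0117) and Colq (FDR = 0.0243) lay on the other side of the threshold. For each gene the 6 ages were also put in the order of its own means, and neighbours in that order were compared. None of these 45 pairs over the 9 genes passed in edgeR, and 1, Musk at 24 and 26 months, had an unadjusted p under 0.05. The order came from the same values and sets close means side by side, so this outcome was largely fixed in advance. Neighbours were not always consecutive ages, as with Agrn at 8 and 28 months and Dok7 at 22 and 28 months, where 39.6% and 27.7% of all genes passed. Of all genes 0.00795% passed between 18 and 22 months and 0.111% between 18 and 24 months, and 0% passed between 22 and 24, 24 and 26, or 26 and 28 months. No member separated 28 from 8 months without overlap, which 4.7% of all genes did.

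**Figure D2:**
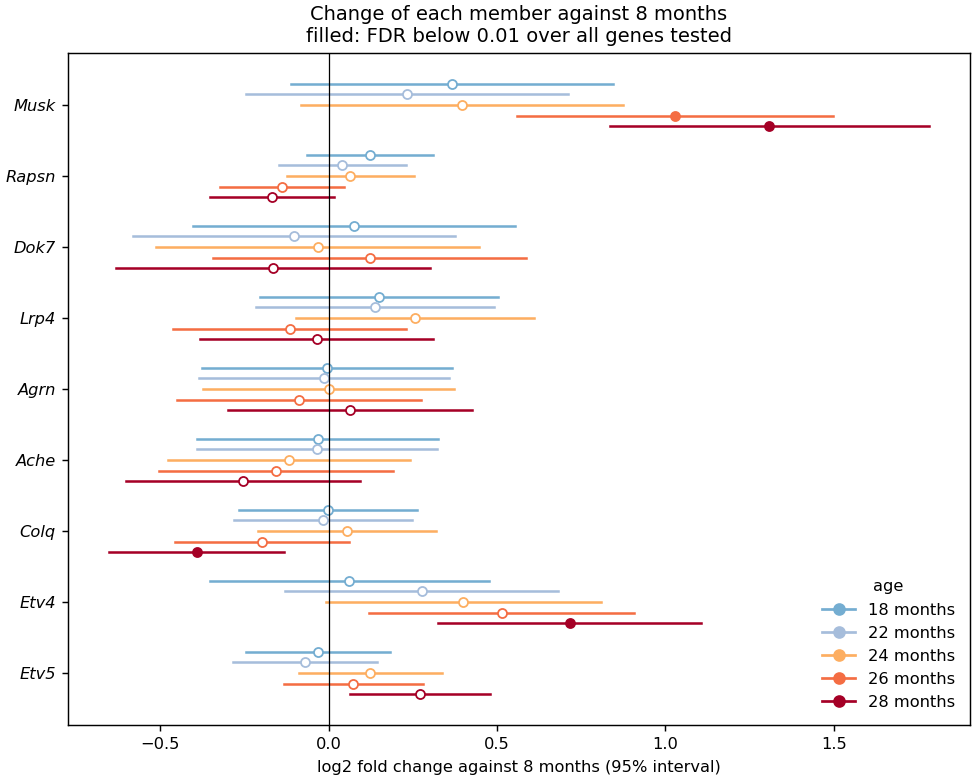
Log2 fold change of each member against 8 months (horizontal axis) with its 95% interval, 1 colour for each of the 5 older ages, and filled points at FDR below 0.01 over all genes tested. Only Musk at 26 and 28 months, Etv4 at 28 months and Colq at 28 months are filled. The intervals of Rapsn, Dok7, Lrp4, Agrn and Ache at 28 months span 0.

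Agrin is the ligand that starts the pathway. Its transcript ranged from 6.94 to 17.0 CPM at 8 months around a median of 11.9, and from 8.21 to 16.8 CPM at 28 months around a median of 12.1. The 9 oldest mice all lay within the range of the 8-month mice. The fitted change was 0.06 on the log2 scale, with a 95% interval from -0.30 to 0.43 (edgeR, FDR = 0.783), and the mean level varied by no more than 1.11-fold over the 6 ages. These values hold muscle RNA and that of the cells within it, whereas the agrin released at the synapse is made by motor neurons, whose cell bodies lie outside the muscle. The sign of this small difference turned in 1 of the fits that left out a single mouse.

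Lrp4, the agrin-binding co-receptor of MuSK, ranged from 9.65 to 17.2 CPM at 8 months (median 14.4) and from 7.19 to 20.1 CPM at 28 months (median 13.1). Old mice lay on both sides of the young range, 2 above every 8-month mouse and 2 below. The difference was -0.04 on the log2 scale, with a 95% interval from -0.38 to 0.31 (edgeR, FDR = 0.876), and its sign depended on the scaling and on single mice, with 0.06 from TPM values. Its highest mean stood at 24 months, 16.8 CPM, and its lowest at 26 months, 13.0 CPM, a difference of -0.37 that did not pass (edgeR, FDR = 0.242).

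MuSK, the receptor kinase at the centre of the pathway, showed the largest change of the 9 genes. At 8 months Musk ranged from 21.1 to 68.2 CPM around a median of 50.1. It ranged from 39.3 to 93.6 CPM at 18 months (median 55.5), from 45.4 to 82.9 CPM at 22 months (median 51.3) and from 50.2 to 71.3 CPM at 24 months (median 60.5). The ranges of these 4 ages overlapped, with 4 of the 8 mice of 8 months below every mouse of 22 and 24 months, and the mice of 24 months lay closest together, with a coefficient of variation of 10.3% against 38.7% at 8 months. Musk ranged from 53.9 to 161 CPM at 26 months (median 92.4) and from 62.6 to 279.6 CPM at 28 months (median 86.9). Of the 9 mice of 26 months 8 exceeded every 8-month mouse, as did 7 of the 9 mice of 28 months.

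The mean of Musk was 46.6 ± 18.0 CPM at 8 months (SD, n = 8) and 95.1 ± 31.6 CPM at 26 months (SD, n = 9), a log2 fold change of 1.03 (SE 0.23, edgeR, FDR = 0.000941). At 28 months the mean was 115.5 ± 70.4 CPM (SD, n = 9), 2.48-fold that of 8 months, a log2 fold change of 1.31 (SE 0.24, edgeR, FDR = 1.49e-05). Against 22 months, within the common diet regime, it was 1.08 (edgeR, FDR = 0.000369), and against 24 months 0.91 (edgeR, FDR = 0.00453). The step from 24 to 26 months was 0.63 and did not pass (edgeR, FDR = 0.140), nor did that from 26 to 28 months, 0.28 (edgeR, FDR = 0.581). The 2 mice of 28 months at 279.6 and 176 CPM set the upper end. When both were left out, an alternative chosen after the data were seen, Musk still passed at 0.84 (edgeR, FDR = 0.000766).

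Musk lies on chromosome 4 of GRCm38, from 58285960 to 58374303 on the forward strand. Its upstream sequence is shown beside that of Chrna1, the acetylcholine receptor alpha subunit gene, because both genes rose by like amounts by 28 months and because both are known targets of myogenin, a muscle transcription factor that binds E-boxes. Both are printed 5′ to 3′ as the 250 bases before the start of the gene in RefSeq (GRCm38.p6), at chr4:58285712-58285961 on the forward strand for Musk and at chr2:73580339-73580588 on the reverse strand for Chrna1. Capitals mark every match of the E-box pattern CANNTG.
Musk: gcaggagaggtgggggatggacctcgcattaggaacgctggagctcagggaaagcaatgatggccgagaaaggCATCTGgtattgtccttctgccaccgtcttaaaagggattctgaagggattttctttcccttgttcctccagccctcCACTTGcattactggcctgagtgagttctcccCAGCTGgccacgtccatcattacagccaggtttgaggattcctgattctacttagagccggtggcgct
Chrna1: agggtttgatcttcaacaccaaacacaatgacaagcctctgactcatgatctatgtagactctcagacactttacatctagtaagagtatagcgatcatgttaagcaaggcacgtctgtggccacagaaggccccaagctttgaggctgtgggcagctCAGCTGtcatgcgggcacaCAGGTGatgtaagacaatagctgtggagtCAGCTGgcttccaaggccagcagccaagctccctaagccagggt

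Each of the 2 sequences held 3 E-boxes, and the share of all windows with as many was not computed. In Musk 1 of them was the CAGCTG form, and in Chrna1 2 were. Windows of 300 bases, from 250 before to 50 after the start, were given for 5 of the 9 members, as 8 windows for Musk, Agrn, Dok7, Ache and Etv5. CANNTG, which includes CAGCTG, was found in 5 of the 8 windows, beside 72.3% of the 32851 windows of all genes, and CAGCTG in 2 of the 8, Musk and Etv5, beside 16.3%. CCGGAA, the N-box core that ETS factors bind, searched on both strands, was found in none of the 8 windows, beside 14.9% of all windows. These matches describe the letters of the windows and not the binding of a factor.

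Dok7, the cytoplasmic adaptor that activates MuSK from within the fibre, ranged from 13.6 to 22.7 CPM at 8 months (median 19.3). It ranged from 10.6 to 28.4 CPM at 26 months (median 20.3) and from 3.79 to 29.3 CPM at 28 months (median 17.9). At 28 months 3 mice exceeded all 8-month mice and 4 fell below all of them, so the old mice lay on both sides of the young range. The mean went from 18.2 ± 3.22 CPM (SD, n = 8) to 16.2 ± 9.47 CPM (SD, n = 9), a log2 difference of -0.17 with a 95% interval from -0.63 to 0.30 (edgeR, FDR = 0.566). Without the 2 mice of 28 months that were lowest in Dok7, which were also the 2 highest in Musk, the difference was 0.09. These mice were left out after the data were seen, and leaving out the lowest values raises the difference by itself. With any 1 mouse of 8 or 28 months left out, the difference ranged from -0.32 to -0.03.

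Rapsyn, which binds and clusters the acetylcholine receptors, varied little between mice, with a coefficient of variation of 9.34% to 17.8% within ages. Rapsn ranged from 21.6 to 35.4 CPM at 8 months (median 29.5), from 22.5 to 40.3 CPM at 18 months (median 32.6) and from 21.7 to 31.5 CPM at 28 months (median 25.1). All mice of 28 months lay within the 8-month range, and 2 lay below every mouse of 18 months. Against 8 months the change was -0.17 (SE 0.09, edgeR, FDR = 0.116). Against 18 months, the age with the highest mean, it was -0.29 (SE 0.09, edgeR, FDR = 0.00740) and passed.

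Per transcript length, Musk and Rapsn exchanged places with age. At 8 months Musk stood at 27.1 ± 11.5 TPM and Rapsn at 32.3 ± 3.65 TPM (SD, n = 8), and Musk was the higher in 3 of 8 mice. It was the higher in 2 of 8 mice at 18 months, 1 of 8 at 22 months and 4 of 8 at 24 months. At 26 months Musk was above Rapsn in 8 of 9 mice, and at 28 months in 9 of 9, with 70.4 ± 42.4 TPM for Musk and 30.3 ± 3.52 TPM for Rapsn (SD, n = 9). Over all 50 mice the TPM means ran from Musk at 43.2, Rapsn at 32.5, Ache at 22.0 and Dok7 at 13.4 down to Etv5 at 7.09, Colq at 6.64, Agrn at 4.38, Lrp4 at 4.18 and Etv4 at 1.9. This order pools the 6 ages, and it differed within some of them, since the mean of Colq was above that of Etv5 at 8, 18 and 22 months and that of Lrp4 above that of Agrn at 18, 22 and 24 months. On this scale the transcript of the kinase exceeded that of its co-receptor Lrp4 in the mean.

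The receptor subunits that rapsyn clusters were measured in the same libraries. Of the 5 subunit genes 4 were tested, and 3 rose between 8 and 28 months. Chrna1, the alpha subunit that binds acetylcholine, ranged from 15.1 to 22.1 CPM at 8 months and from 28.6 to 58.8 CPM at 28 months without overlap (log2 fold change 1.27, SE 0.15, edgeR, FDR = 1.74e-08). Chrnb1, the beta subunit, rose by 1.04 (SE 0.12, edgeR, FDR = 2.21e-08) and Chrnd, the delta subunit, by 0.62 (SE 0.18, edgeR, FDR = 0.00288). Chrne, the subunit of the adult receptor, had means of 16.1 TPM in the youngest and 13.7 TPM in the oldest mice, a log2 difference of -0.25 that did not pass (edgeR, FDR = 0.149). Chrng, the fetal counterpart of Chrne, was below the limit on low genes. Chrna1 passed earlier than Musk, at 24 months (0.94, edgeR, FDR = 0.000184), when Musk stood at 0.40 (edgeR, FDR = 0.356). The difference between these 2 changes was not tested.

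Acetylcholinesterase and its anchor both had their lowest mean at 28 months. Ache, the catalytic subunit, ranged from 22.5 to 39.1 CPM at 8 months (median 32.0) and from 6.44 to 40.3 CPM at 28 months (median 27.8). The ranges overlapped nearly fully apart from 1 old mouse at 6.44 CPM. The log2 difference was -0.25, with a 95% interval from -0.60 to 0.09 (edgeR, FDR = 0.217), although the mean of Ache was lower at each successive age, from 32.1 CPM at 8 months to 26.9 CPM at 28 months.

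Colq, whose product tethers acetylcholinesterase to the basal lamina and to MuSK, ranged from 9.14 to 14.2 CPM at 8 months (median 9.90) and from 3.65 to 11.2 CPM at 28 months (median 8.37). Of the 9 oldest mice 6 lay below every 8-month mouse. The mean fell from 10.7 ± 1.71 CPM (SD, n = 8) to 8.16 ± 2.09 CPM (SD, n = 9), a log2 change of -0.39 (SE 0.13, edgeR, FDR = 0.00984). This call stood at the edge of the threshold and was kept in 2 of 8 alternatives and in 5 of 17 fits without 1 mouse, where the FDR reached 0.0357. It was lost at -0.29 (edgeR, FDR = 0.0284) without the 1 mouse of 28 months at 3.65 CPM. Colq overlaps another protein-coding gene model, Gm49387, on the same strand of chromosome 14 (31523082 to 31591343, GRCm38), so reads of the 2 models may have been shared in the counting.

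Of the ETS factors, Etv4 rose between 8 and 28 months, whereas Etv5 passed against 22 but not against 8 months. Etv4 ranged from 0.985 to 1.9 CPM at 8 months (median 1.39) and from 1.45 to 3.09 CPM at 28 months (median 2.44). Of the 9 oldest mice 6 exceeded every 8-month mouse. The mean went from 1.38 ± 0.28 CPM (SD, n = 8) to 2.27 ± 0.58 CPM (SD, n = 9), a log2 fold change of 0.72 (SE 0.19, edgeR, FDR = 0.00192), and the 6 age means followed the order of the ages. Etv4 was the scarcest member and reached 1 CPM in 46 of the 50 mice. Within the common diet regime, from 22 to 28 months, its change was 0.44 and did not pass (edgeR, FDR = 0.0581).

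Etv5 ranged from 10.6 to 14.97 CPM at 8 months (median 12.8), from 10.2 to 14.5 CPM at 22 months (median 11.9) and from 9.61 to 17.5 CPM at 28 months (median 16.1). At 28 months 7 mice lay above every 8-month mouse and 1 lay below them all. Against 8 months the difference was 0.27 (SE 0.10, edgeR, FDR = 0.0238), short of the threshold, and without that 1 low mouse it was 0.34 and passed (edgeR, FDR = 0.00316). Against 22 months it was 0.34 (SE 0.10, edgeR, FDR = 0.00711) and passed, a call that 5 of 7 alternatives did not keep.

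Replicates 1 and 2 of 28 months had the 2 highest values of Musk and the 2 lowest of Dok7 at that age. In Dok7, replicate 5 lay close to replicate 2, at 40.7% of the 8-month mean. Replicates 1 and 2 differed from each other in other members. Replicate 1 had the highest Musk, at 279.6 CPM or 600% of the 8-month mean, and the lowest Dok7, at 20.9% of that mean. Its Myog, which encodes myogenin, was 35.9 CPM, where the 8-month mice had 2.02 to 6.19. Replicates 5, 8 and 9 of 28 months also exceeded that range, at 8.51, 10.4 and 8.33 CPM. Its Agrn, Ache and Etv5 were at 110%, 86.7% and 134% of the 8-month mean.

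Replicate 2 had the second highest Musk, at 378% of the 8-month mean, and the lowest values of its age for Rapsn, Lrp4, Agrn, Ache, Colq, Etv4 and Etv5. Ache stood at 20.1%, Colq at 34.2%, Dok7 at 35.7% and Etv5 at 75.3% of the 8-month mean, whereas Myog, at 4.99 CPM, was within the young range. The other 7 mice of 28 months had Musk between 62.6 and 113 CPM. Without replicates 1 and 2, a choice made after the data were seen, Musk, Etv4 and Etv5 passed and Colq did not (-0.28, edgeR, FDR = 0.0478). The part of the state of these 2 mice in the results was not tested.

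**Figure D3:**
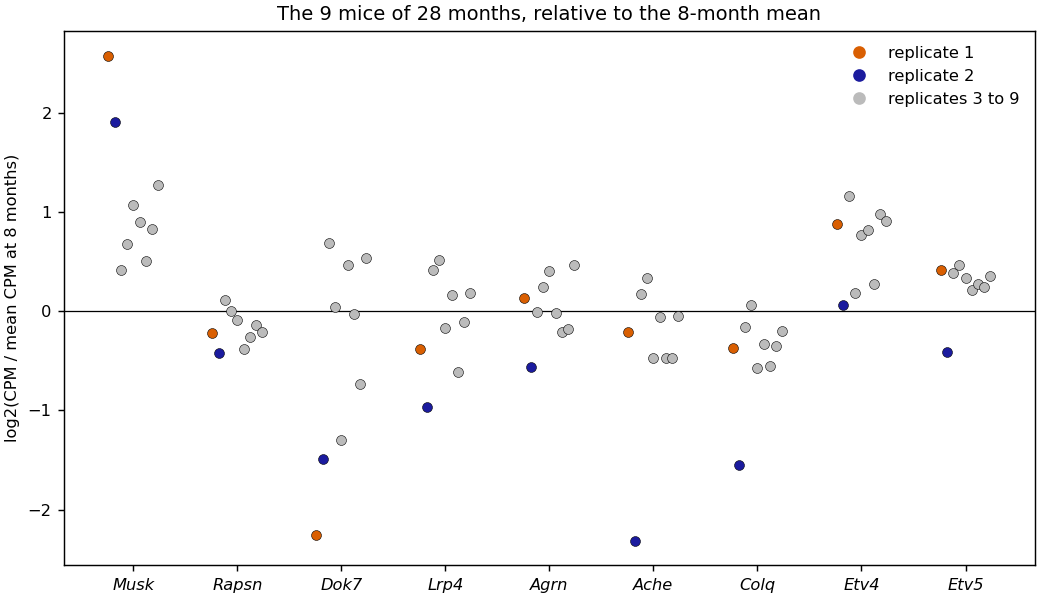
Level of each member in each of the 9 mice of 28 months, as the log2 ratio to the 8-month mean CPM (vertical axis; 0 is the 8-month mean), with replicate 1 in orange, replicate 2 in blue and the other mice in grey. All 9 points of Musk lie above 0, while replicates 1 and 2 lie lowest for Dok7 and replicate 2 lies lowest for Ache and Colq.

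The study asked whether mice of one age diverge with ageing, and measured this by the coefficient of variation of TPM. Here another measure was tested between 8 and 28 months, the mean distance of log2 CPM from the median of the age. For Dok7 this distance was 0.191 at 8 months and 0.825 at 28 months (two-sided exact permutation test over 24310 regroupings, p = 0.0181, adjusted p = 0.163 over the 9 such tests). It was the only one of the 9 tests with an unadjusted p under 0.05. The adjusted p for Dok7 passed under 0.05 when any 1 of replicates 3, 4, 6, 7 and 9 of 28 months was left out, with differences in distance of 0.648 to 0.737 against 0.634 over all mice. Lrp4 went from 0.159 to 0.376 (exact permutation test, adjusted p = 0.344) and Ache from 0.189 to 0.455 (exact permutation test, adjusted p = 0.712). Musk, in spite of its wide range in CPM at 28 months, had distances of 0.522 and 0.489 at these ages, with a difference of -0.0326 (exact permutation test, p = 0.889). Its coefficient of variation of CPM went from 38.7% to 61%. By that measure all members but Rapsn and Agrn were more spread at 28 than at 8 months, which was not tested.

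Within ages, the members did not vary as one group. After the mean of each age was removed from log2 CPM, members were correlated over the 50 mice by Pearson's r and Spearman's rho. Mice were permuted within ages, and a pair passed if both measures had an adjusted p under 0.05 over 54 relations. In this permutation test 10 of the 36 pairs of members passed, 9 positively and 1 negatively. The share of pairs that would pass among all genes tested was not computed, so the count is not shown to be particular to the members. The negative pair was Musk with Rapsn, the kinase and the scaffold (r = -0.53, adjusted p = 0.00189; rho = -0.51, adjusted p = 0.00513, permutation test). It was negative in 4 of the 6 ages, and r was -0.57 without the 2 mice farthest from the median in Musk. Musk with Dok7 had r = -0.44 but -0.28 without the 2 outermost mice, and its rho of -0.25 did not pass (adjusted p = 0.206, permutation test).

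The strongest positive pair was the enzyme and its anchor, Ache with Colq (r = 0.71, adjusted p = 0.0018; rho = 0.57, adjusted p = 0.00378, permutation test), positive in all 6 ages, with r = 0.46 without the 2 outermost mice. Agrn with Etv5 (r = 0.64, rho = 0.60), Lrp4 with Colq (r = 0.61, rho = 0.52) and Lrp4 with Agrn (r = 0.51, rho = 0.50) also held in all 6 ages, with r of 0.60, 0.48 and 0.46 without the 2 outermost mice. The other 5 positive pairs were Colq with Etv5, Lrp4 with Ache, Lrp4 with Etv5, Dok7 with Colq and Colq with Etv4, with r from 0.42 to 0.60. Of these, Lrp4 with Etv5 and Colq with Etv4 were positive in all 6 ages. Colq with Etv5 and Lrp4 with Ache were positive in 5 ages, and Dok7 with Colq in 4. None of the 18 relations of a member with Chrna1 or Myog passed for both measures. Musk with Myog reached r = 0.40 (adjusted p = 0.0536; rho = 0.26, adjusted p = 0.167, permutation test) and fell to 0.26 without the 2 outermost mice, and Dok7 with Myog had r = -0.49 (adjusted p = 0.0254), with a rho of -0.32 that did not pass (adjusted p = 0.101, permutation test). The values of a mouse share 1 library, so these relations include whatever varies between libraries.

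**Figure D4:**
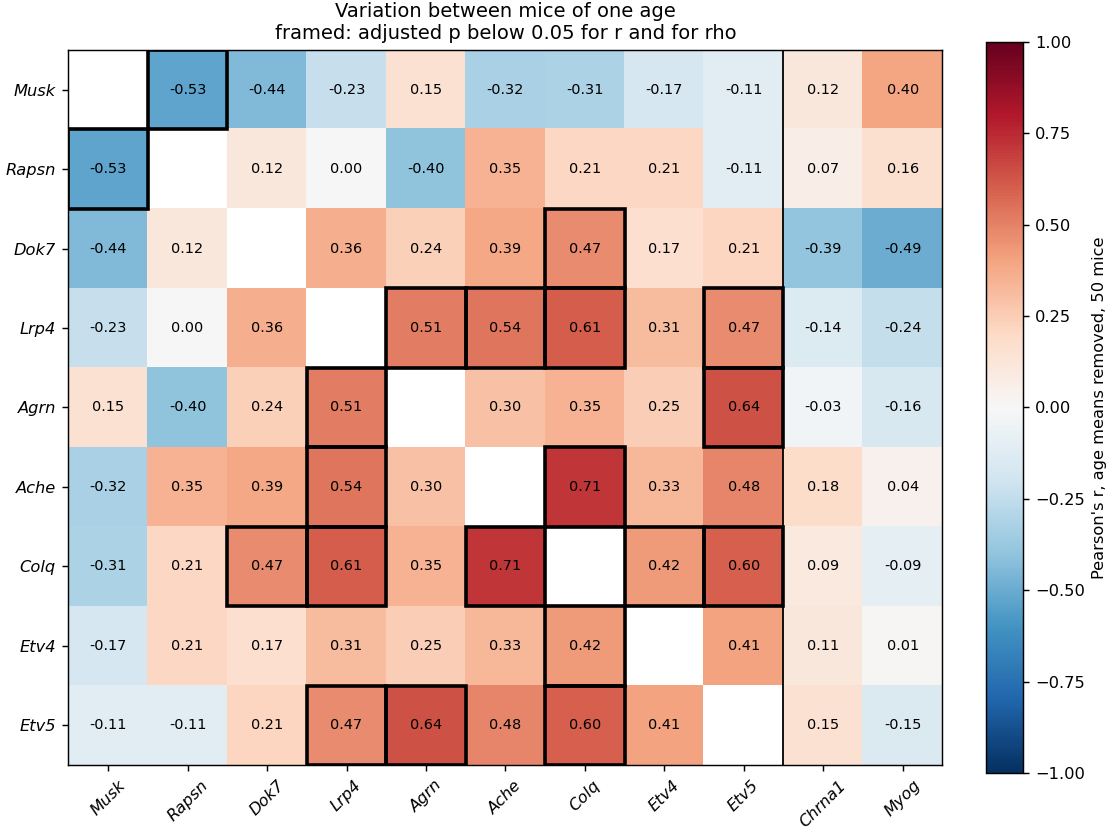
Pearson's r between members, and of each member with Chrna1 and Myog, over 50 mice after removal of the mean of each age from log2 CPM (colour scale from -1 to 1), with frames where r and Spearman's rho both had an adjusted p below 0.05. The framed cells form a positive group around Colq, Lrp4 and Etv5, and the only negative framed pair is Musk with Rapsn at -0.53.

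Other genes of the pathway were counted in the same comparison of 28 with 8 months, in which 39.6% of all genes passed. Of 22 partners of MuSK signalling, 3 rose, 2 fell and 17 did not pass, so that 22.7% were called, with a median change of 0.06 on the log2 scale, beside 0.01 over all genes. Cttn, the actin-binding protein cortactin, rose by 0.27 (SE 0.06, edgeR, FDR = 0.000202). Cdk5, a kinase that disperses receptor clusters, fell by 0.35 (SE 0.09, edgeR, FDR = 0.00109), and Fyn, a Src-family kinase, fell by 0.34 (SE 0.11, edgeR, FDR = 0.00712).

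Of 18 genes of the synaptic matrix and the dystrophin-associated glycoprotein complex, 2 rose, 4 fell and 12 did not pass (33.3% called, median -0.03). At 26 months 1 of these 18 genes was higher and 6 were lower than at 8 months, so that 38.9% were called, where 18.4% of all genes were. The 4 that fell all encode matrix proteins. Col4a5, a chain of basement membrane collagen, fell by 0.97 (SE 0.17, edgeR, FDR = 1.37e-05), and Hspg2, which encodes perlecan, the heparan sulphate proteoglycan that binds acetylcholinesterase through ColQ, fell by 0.71 (SE 0.16, edgeR, FDR = 0.000298). Dtna, which encodes the cytoplasmic alpha-dystrobrevin, rose by 0.37 (SE 0.08, edgeR, FDR = 0.000182).

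In the neuregulin and ETS list, 2 of 7 tested genes rose and none fell (28.6% called). These were Ets2 (0.55, SE 0.13, edgeR, FDR = 0.000480) and Gabpa, the DNA-binding subunit of GABP (0.34, SE 0.09, edgeR, FDR = 0.00181), whereas Erbb2, a neuregulin receptor, did not pass (0.14, edgeR, FDR = 0.359). Of 3 tested cholinesterase partners, P4hb, a protein disulphide isomerase that also serves collagen hydroxylation, rose by 0.45 (SE 0.09, edgeR, FDR = 6.97e-05). Prima1, the membrane anchor of acetylcholinesterase, and Bche, butyrylcholinesterase, did not pass, at -0.48 (edgeR, FDR = 0.199) and 0.09 (edgeR, FDR = 0.676).

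**Figure D5:**
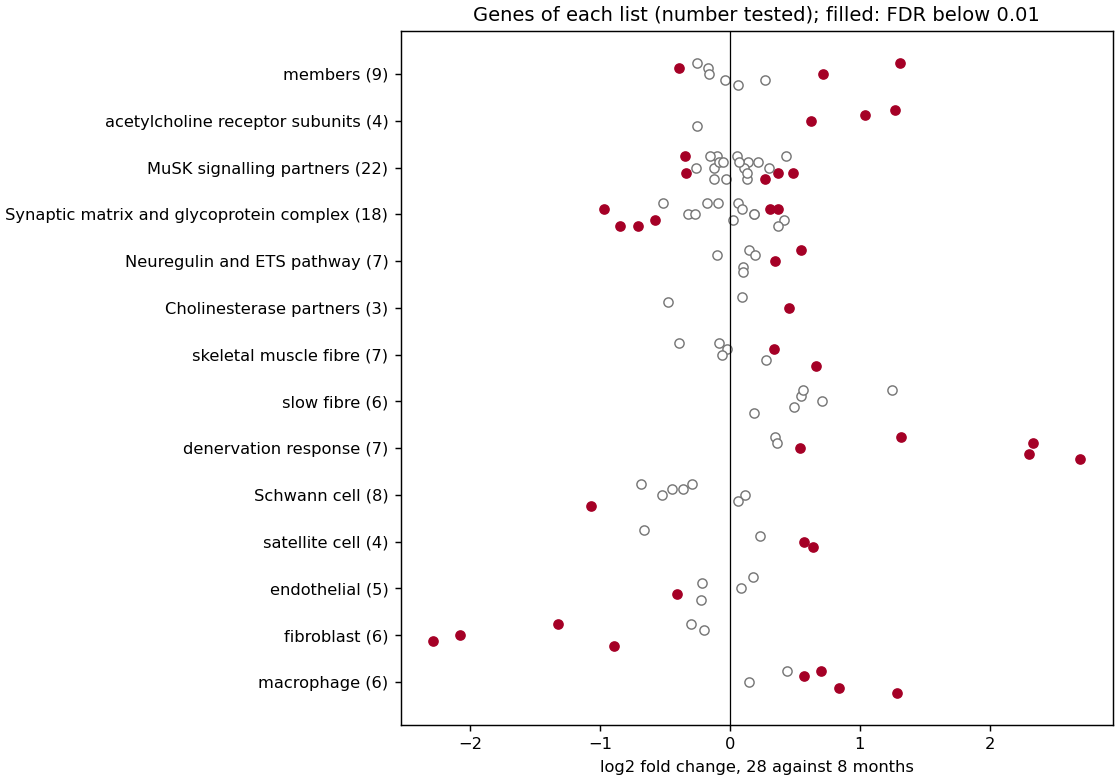
Log2 fold change between 28 and 8 months (horizontal axis) of each tested gene of the members, the pathway lists and the marker lists, with filled points at FDR below 0.01 over all genes tested. Of the members 2 points are filled to the right and 1 to the left, while 5 of 7 denervation genes are filled to the right and 4 of 6 fibroblast genes to the left.

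Markers of the denervation response and of the cells that a whole muscle holds were counted over the same interval, in which 21% of all genes were called higher and 18.7% lower. Of 7 tested genes of the denervation response 5 rose (71.4%), among them Runx1 (2.33, SE 0.27, edgeR, FDR = 1.74e-08) and Myog (1.32, SE 0.34, edgeR, FDR = 0.00130), and the list summed to between 133 and 223 TPM at 8 months and between 243 and 669 TPM at 28 months, without overlap. Of 6 fibroblast markers 4 fell (66.7%), led by Dpt (-1.32, edgeR, FDR = 1.74e-08), with sums of 746 to 1061 TPM at 8 months and 605 to 826 TPM at 28 months. Of 6 macrophage markers 4 rose (66.7%), led by Cd163 (1.29, edgeR, FDR = 9.75e-06), with sums of 132 to 225 TPM and 202 to 610 TPM.

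The remaining lists had called shares, in either direction, of 12.5% for Schwann cells, 20% for endothelium, 50% for satellite cells, 0% for slow fibres and 28.6% for all fibres, beside 39.6% of all genes. Of 8 Schwann cell markers only S100b fell (-1.07, edgeR, FDR = 0.00210), with sums of 43.9 to 247 TPM and 60.5 to 201 TPM. Of 5 endothelial markers Tek fell (-0.40, edgeR, FDR = 0.00160), with sums of 135 to 205 TPM and 142 to 208 TPM, and 2 of 4 satellite cell markers rose, led by Cdh15 (0.57, edgeR, FDR = 0.000180), with sums of 13.0 to 15.7 TPM and 14.6 to 28.5 TPM. None of 6 slow fibre markers passed, with Myh7 at 1.25 (edgeR, FDR = 0.0174) and sums of 341 to 1977 TPM and 666 to 2936 TPM, and of 7 markers of all fibres 2 rose, led by Des (0.34, edgeR, FDR = 0.000231). No marker was at 0 in all mice. The part of these markers in the changes of Musk, Etv4 and Colq was not tested.

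The genes most like each member over the 50 mice, by Pearson's r of log2 CPM among all genes tested, were named by a fixed rule as the first 3 for each. Musk ran closest to Chd7 (r = 0.90), a chromatin remodeller, Jmjd1c (r = 0.89), a Jumonji-family protein, and Mypn (r = 0.88), which encodes the sarcomere protein myopalladin, and these 3 rose by 1.08, 0.90 and 0.83 by 28 months. Ache ran closest to Mamstr (r = 0.87), a coactivator of MEF2, Prkag3 (r = 0.86), a muscle subunit of AMP-activated kinase, and Gpd1 (r = 0.83), a glycerol phosphate dehydrogenase. By Spearman's rho these 3 were at 0.80, 0.62 and 0.56. The part of the 1 mouse of 28 months with Ache at 6.44 CPM in these r values was not tested. Rapsn ran closest to Pdrg1 (r = 0.81), Vps28 (r = 0.80) and BC029722 (r = 0.77).

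Dok7 ran closest to Mief2 (r = 0.81, rho = 0.71), Slc35e4 (r = 0.79, rho = 0.71) and Vasn (r = 0.73, rho = 0.54). Lrp4 ran closest to Kank2 (r = 0.82), Ston2 (r = 0.80) and Ahdc1 (r = 0.79). Agrn ran closest to the vascular mural cell receptor Notch3 (r = 0.80), then to Kirrel (r = 0.77) and Dock6 (r = 0.77). Colq ran closest to Ptprs (r = 0.78, rho = 0.59), Plxnd1 (r = 0.77, rho = 0.64) and Islr (r = 0.77, rho = 0.52). The likeness was weaker for the ETS factors, with Strn4 (r = 0.60), Selenbp1 (r = 0.60) and Gramd1a (r = 0.59) for Etv4 and Itpr3 (r = 0.67), Atp2a3 (r = 0.66) and Mapk8ip3 (r = 0.64) for Etv5. These values describe shared variation over mice and libraries, and they include the differences between ages. With the age means removed, r for the 3 genes of Etv4 was 0.38, 0.38 and 0.43.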

How the data were processed

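Gastrocnemius RNA of 50 mice was analysed, with ages and replicate numbers taken from the sample labels. The authors trimmed the reads with cutadapt 1.9.1 and assigned them by strand with kallisto 0.43.1 to protein-coding transcripts of GRCm38, and a read that fitted several transcripts was divided among them. The deposited counts are whole numbers summed by the authors over the transcripts of a gene, and the deposited TPM values were divided by transcript length by the authors.

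Tests used the quasi-likelihood method of edgeR 4.0.16 (R 4.3.3) with TMM scaling, and the 6 ages shared 1 fit. A gene was tested if 8 or more mice reached 1 CPM, p-values were adjusted by Benjamini-Hochberg over the 12586 such genes, and the FDR limit was 0.01. CPM values used the TMM library sizes, and a prior count of 2 was used for log2 CPM. Standard errors were derived from the fold change and its F statistic, and intervals are 95%. Alternatives were upper-quartile factors, DESeq2 1.42.0, no limit on low genes, a fit on 2 ages alone, limma 3.58.1 on log2(TPM + 1) and on log2(TPM + 0.1), replicate numbers as a blocking factor, and fits that omitted a single mouse of the youngest or oldest age. On simulated data for 28 against 8 months, 179 of 200 genes changed by 2-fold were recovered among 12586, with 1 false call. Spread was tested by exact permutation and correlations by 100000 permutations within ages, in Python 3.11.15 with scipy 1.17.1.

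The members, the gene lists and the tests were chosen with earlier results of these data known. The genes named were the 9 members, the 5 receptor subunits, the 3 genes of lowest FDR in each other pathway list, the 3 genes most like each member, and the gene of lowest FDR in each marker list with Myog. Ufsp1, Myh3 and Cldn5 had no matching gene, and Chrng, Nrg1, Erbb4 and Calcr were below the limit on low genes. Positions came from GENCODE vM21 and promoter sequences from RefSeq (GRCm38.p6). The labels name no batch. Equal replicate numbers of different ages were not treated as pairs of mice. Deviations from the age means over genes correlated with a median of 0.0513 over 121 such pairs, with a range from -0.5543 to 0.38. Of these pairs 47 exceeded 0.1, a count not made for unequal numbers. Among mice of other ages, 8 of the 50 mice correlated most with one of their own number. The number that chance would give was not computed. Pairs with unequal numbers had a median of -0.0059. The source of this difference was not tested.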

Additional observations from a re-analysis of the deposited data

Results flagged for a closer look

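A value far from the rest of its age was found in 6 of the 54 groups of mice examined (9 genes at 6 ages), where chance gives about 1 in 20. Musk at 22 months had 1 mouse at 82.9 CPM, with the next value at 57.7. Dok7 at 24 months had 1 mouse at 26.2 CPM, with the next at 17.9. Agrn at 18 months had 1 mouse at 22.2 CPM, with the next at 13.4. Etv4 at 24 months had 1 mouse at 2.37 CPM, with the next at 1.91. The other 2 values belonged to replicate 2 of 28 months, which had Ache at 6.44 CPM, where the next value was 23.1, and Etv5 at 9.61 CPM, where the next was 14.8. Musk at 28 months, where replicate 1 stood at 279.6 CPM, was not among these groups, because replicate 2 stood at 176 CPM.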

How the results depend on the processing

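Musk and Etv4 passed in each of 8 alternatives and 17 fits without 1 mouse, with log2 fold changes between 28 and 8 months from 0.84 to 1.41 for Musk and from 0.47 to 0.80 for Etv4. The count of members called was 2 or 3 in each, and without replicate 2 of 28 months, alone or together with replicate 1, Etv5 passed and Colq did not. Of 379 alternatives for single results, 325 were classed as unchanged and 7 moved a count. Another 18 lost the call, 7 gained one and 22 turned the sign. Fold changes and spreads classed as unchanged kept direction and side of the threshold. A count of members that went from 3 to 2 at 28 months was also classed as unchanged. With the replicate number as a block, 2 members passed at 28 months and Colq was -0.40 (edgeR, FDR = 0.0119), and no other member's call changed. Colq was also past the threshold no more without the limit on low genes (-0.39, FDR = 0.0159), in a fit on 2 ages (-0.39, FDR = 0.0484), in limma on log2(TPM + 1) (-0.31, FDR = 0.0415) and on log2(TPM + 0.1) (-0.36, FDR = 0.0397), and without replicates 1 and 2 of 28 months (-0.28, edgeR), and it ranged from -0.46 to -0.29 with 1 mouse left out. The 2-age fit holds fewer mice. The cause of the other losses was not tested. Between 28 and 22 months only Musk, 1 member, passed with upper-quartile factors, without the limit on low genes, in a fit on 2 ages and in both limma fits. The test over 6 ages called 2 members with upper-quartile factors (Musk and Rapsn) and 2 with limma on log2(TPM + 1) (Musk and Etv4).

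Directions that turned were those of small differences. Dok7 was 0.0946 and Lrp4 0.10 without replicates 1 and 2 of 28 months, which were left out after the data were seen. These 2 mice had the lowest Dok7 of their age. In the limma fits Lrp4 was 0.0592 and 0.0677. With 1 mouse left out Lrp4 ranged from -0.12 to 0.0504, with positive values without replicate 2 of 8 months or replicate 1, 2 or 7 of 28 months, and Agrn from -0.0228 to 0.15, negative without replicate 3 of 8 months. Etv5 passed at 0.33 without both mice, and ranged from 0.24 to 0.34 with 1 left out. The difference in spread of Rapsn was 0.0033 on log2(TPM + 1). With 1 mouse of 28 months left out, the difference in spread ranged from -0.182 to 0.0285 for Musk, from -0.0751 to 0.0172 for Etv5 and from 0.462 to 0.737 for Dok7, which passed 0.05 after adjustment without replicate 3, 4, 6, 7 or 9. Depth limits Etv4 most, with 12 to 48 reads in a mouse.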
